A study of Mus musculus with 48 samples.

Results

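Tek, Mr1, Ctso, Jam2 and Syne1 are the 5 mouse genes whose difference between libraries labelled Setd1b cKO and libraries labelled control was more positive in RNA of hippocampal CA neurons than in RNA of the whole CA tissue. They were chosen from these same libraries, as the genes with a positive difference of the 2 genotype effects at an adjusted p under 0.05 in edgeR's quasi-likelihood test with Benjamini-Hochberg adjustment. They are 5 of 17523 genes tested, among 47569 gene identifiers present in both RNA tables. In all, 28 genes passed that threshold. The 5 positive ones are 0.0285% of the genes tested (0.16% were called in either direction), and the other 23 had a more negative effect in neuron RNA. The genotype effect in either material, and the difference between the materials, are therefore what selected the genes, and they are described here without a test.

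The series holds 48 libraries from adult C57BL/6J mice aged 4 to 6 months, either Setd1b cKO or control. Neuron RNA was sequenced in 3 cKO and 3 control libraries, and whole CA RNA in 6 and 6. ChIP-seq from FACS-sorted, fixed neuronal nuclei covered H3K4me3 (4 cKO, 4 control), H3K4me1 (4 and 4), H3K27ac (4 and 3) and H3K9ac (3 and 4). The labels name no Cre driver, give no other treatment, and do not say how neuron RNA was separated from the tissue or whether each library came from its own animal, so p-values measure the spread between these libraries, which may be partly technical.

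SETD1B is a methyltransferase of the COMPASS family that places methyl groups on lysine 4 of histone H3. Trimethylation at this residue marks active start sites, and broad domains of it often cover genes that define a cell's identity. Monomethylation and H3K27 acetylation mark enhancers as well. The 5 genes come from unrelated pathways. Tek encodes TIE2, the receptor tyrosine kinase for angiopoietins on endothelial cells. Jam2 encodes JAM-B, an immunoglobulin-superfamily adhesion molecule of cell junctions that is also found on neurons. Mr1 encodes an MHC class I-like molecule that pairs with beta-2-microglobulin and presents vitamin B metabolites to mucosal-associated invariant T cells. Ctso encodes cathepsin O, a papain-family cysteine protease of lysosomes. Syne1 encodes nesprin-1, which spans the outer nuclear membrane, binds SUN proteins and links the nucleus to the cytoskeleton, and which has many shorter products from internal start sites.

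Before the values, the stretches just upstream of 3 of the genes are shown, because H3K4me3 was measured over them and they differ in CpG content, a base pair step that is common in H3K4me3-rich promoters. Each is the 250 bases before the RefSeq start (GRCm38.p6), 5′ to 3′ on the gene's strand, with every CG in capitals. They lie at chr1:155146815-155147064 on the minus strand for Mr1, chr3:81932351-81932600 on the plus strand for Ctso and chr10:5550693-5550942 on the minus strand for Syne1.
Mr1: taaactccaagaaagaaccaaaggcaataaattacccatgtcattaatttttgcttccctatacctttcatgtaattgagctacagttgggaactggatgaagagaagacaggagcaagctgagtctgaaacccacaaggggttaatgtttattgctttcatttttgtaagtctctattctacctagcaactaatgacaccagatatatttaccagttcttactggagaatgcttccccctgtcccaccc
Ctso: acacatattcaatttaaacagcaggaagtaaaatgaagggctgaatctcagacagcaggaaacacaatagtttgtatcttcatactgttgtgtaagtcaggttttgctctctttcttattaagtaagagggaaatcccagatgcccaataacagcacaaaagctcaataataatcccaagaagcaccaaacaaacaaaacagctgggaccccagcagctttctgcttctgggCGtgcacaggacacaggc
Syne1: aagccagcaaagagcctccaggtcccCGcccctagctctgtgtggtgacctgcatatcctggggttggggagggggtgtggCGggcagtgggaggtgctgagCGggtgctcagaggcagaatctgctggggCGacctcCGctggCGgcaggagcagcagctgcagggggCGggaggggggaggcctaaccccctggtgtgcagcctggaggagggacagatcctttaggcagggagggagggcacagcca
CG reads the same on both strands. Mr1 has 0 of them, Ctso 1 and Syne1 7, and the same window of Tek has 2. Of 32851 promoters listed for the build, every one holds at least as many as Mr1, 92.1% hold at least as many as Ctso, 81.2% at least as many as Tek and 46.3% at least as many as Syne1, and the median is 6. The windows before the other 2 listed Syne1 starts hold 2 and 4. All 3 printed windows lay wholly inside an H3K4me3 region, the CpG-free window of Mr1 included.

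Depth ran from 55.7 to 69.1 M counted reads per neuron RNA library and from 14.9 to 20.1 M per library of the whole tissue. Mitochondrial transcripts made up 3.41 to 7.05% of whole CA reads but 0.00815 to 0.0144% of neuron reads. The targeted gene, Setd1b (ENSMUSG00000038384), had no lower count under the cKO label. Among neuron libraries it stood at 59.9 to 72.1 CPM (read counts scaled to 1000000 per library) in the libraries labelled cKO and at 47.6 to 65.4 in controls, or 0.25 on the log2 scale (SE 0.13, adjusted p = 0.361, edgeR). Whole CA libraries had more of it under that label, at 54.6 to 67.6 against 29.5 to 54.4 CPM (0.59 on the log2 scale, SE 0.11, adjusted p = 0.00415, edgeR), and within the 2 sequencing lanes the value was 0.49 (edgeR adjusted p = 0.0994) and 0.69 (edgeR adjusted p = 0.0162). Gene-level counts do not show which exons the reads came from, so genotype is called here by the library labels, and every direction rests on them.

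Markers of other cell types set the scale on which the 5 genes are read. Summed over 10 endothelial markers, neuron RNA held 24.7 to 26.9 CPM in controls and 23 to 24.8 in libraries labelled cKO, while whole CA RNA held 263 to 282 and 227 to 276. All 10 were lower in neuron RNA than in whole CA RNA, with a median log2 difference of -6.38. The same held for 7 of 7 mural markers (median -6.17), 7 of 7 microglial (-4.96), 6 of 6 astrocyte (-5.88) and 7 of 7 oligodendrocyte markers (-5.07), none of which was at 0 in all neuron RNA libraries. The 6 excitatory neuron markers were lower too, but by less (median -0.96), at 2980 to 3540 CPM in neuron RNA controls against 6870 to 7850 in whole CA controls. The 4 dentate granule cell markers were higher in neuron RNA, at 153 to 179 against 54.5 to 83.1 CPM in controls.

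**Figure D1:**
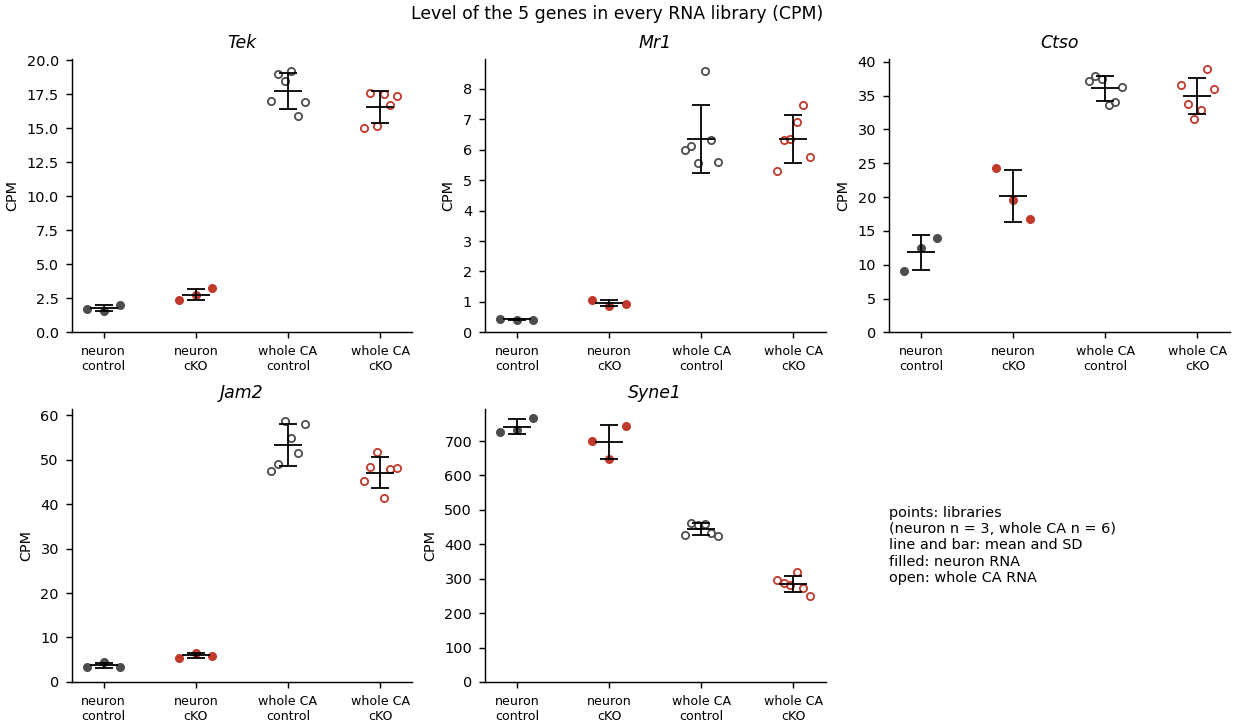
Level of each of the 5 genes in every RNA library, in CPM (vertical axis, from 0). Points are libraries, lines and bars the mean and SD of each group. In neuron RNA the 3 libraries labelled cKO lie above the 3 controls for Tek, Mr1, Ctso and Jam2, and in whole CA RNA those groups overlap, whereas Syne1 separates only in whole CA RNA.

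The 5 genes fell into 2 patterns. For Tek, Mr1, Ctso and Jam2 all 3 neuron RNA libraries labelled cKO were above all 3 controls, while whole CA RNA overlapped between the genotypes. Of all genes tested in neuron RNA, 12.5% had all libraries labelled cKO above the controls, and since that contrast is part of the selection nothing is read from the 4 of 5. Syne1 was lower in whole CA RNA in the libraries labelled cKO and overlapped in neuron RNA. In bulk RNA, a change in the number of cells of a type and a change in RNA per cell cannot be told apart.

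Gene intervals are given in GRCm38 coordinates. Among the cell-surface genes, Tek (ENSMUSG00000006386, chr4:94739086-94874976) had 1.73, 1.56 and 2.0 CPM in the 3 neuron RNA controls and 2.39, 2.72 and 3.23 in the libraries labelled cKO, from 97 to 138 and 160 to 180 reads. The group means were 1.76 ± 0.22 and 2.78 ± 0.422 CPM (SD, n = 3 each), a log2 fold change of 0.64 (SE 0.16). Every library labelled cKO was above every control, with the gap smaller than the spread within the cKO group. In whole CA RNA, Tek ran from 15.9 over a median of 17.8 to 19.2 CPM in controls and from 15 over 17 to 17.6 in libraries labelled cKO. These groups overlapped, and the log2 fold change was -0.12 (SE 0.07).

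Jam2 (ENSMUSG00000053062, chr16:84774123-84826380) had 3.35, 4.43 and 3.46 CPM in neuron RNA controls and 5.41, 6.5 and 5.94 in libraries labelled cKO. The means were 3.75 ± 0.592 and 5.95 ± 0.547 (SD, n = 3 each), a log2 fold change of 0.65 (SE 0.14), and the groups were apart. In whole CA RNA it ran from 47.4 over 53.2 to 58.7 CPM in controls and from 41.4 over 48.0 to 51.7 in libraries labelled cKO. The sign there was the opposite, with overlap and a log2 fold change of -0.19 (SE 0.07), so the difference of 0.85 between materials drew on both sides.

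Mr1 (ENSMUSG00000026471, chr1:155127874-155146814), the antigen-presenting gene, was the lowest in reads of the 5. It had 0.429, 0.419 and 0.42 CPM in neuron RNA controls, from 26 to 29 reads, and 1.06, 0.882 and 0.933 in libraries labelled cKO, from 52 to 71 reads. Its means of 0.423 ± 0.00588 and 0.959 ± 0.0923 CPM (SD, n = 3 each) gave the highest log2 fold change of the 5, 1.17 (SE 0.22). The 3 controls lay closer together than the counting error of so few reads, so their SD is no guide to precision. In the whole tissue the means were equal, 6.36 ± 1.12 CPM in controls and 6.36 ± 0.78 in libraries labelled cKO (SD, n = 6 each), with ranges of 5.57 to 8.57 and 5.31 to 7.48 and medians of 6.05 and 6.34. The log2 fold change was -0.01 (SE 0.12).

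Ctso (ENSMUSG00000028015, chr3:81932601-81956725), the lysosomal protease, had the widest relative spread of the 5 in neuron RNA. It had 9.02, 12.5 and 14 CPM in controls and 24.3, 19.6 and 16.7 in libraries labelled cKO. Each control was below each library labelled cKO, and both groups spread widely, at 11.8 ± 2.57 and 20.2 ± 3.84 CPM (SD, n = 3 each; log2 fold change 0.76, SE 0.18). Whole CA RNA ran from 33.6 over 36.7 to 37.9 CPM in controls and from 31.5 over 34.8 to 38.9 in libraries labelled cKO, overlapping, with a log2 fold change of -0.06 (SE 0.06).

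Syne1 (ENSMUSG00000096054, chr10:5020192-5550692) reached its place from the other side. In neuron RNA it had 725, 733 and 768 CPM in controls and 701, 647 and 744 in libraries labelled cKO, which overlapped (742 ± 23.2 and 697 ± 48.8, SD, n = 3 each; log2 fold change -0.10, SE 0.10). In whole CA RNA the 6 controls ran from 425 over 444 to 463 CPM and the 6 libraries labelled cKO from 249 over 285 to 320. No library labelled cKO reached the lowest control, which held for 1.78% of all genes, and the log2 fold change was -0.65 (SE 0.06). Within the 2 lanes of whole CA libraries the log2 fold change was -0.61 and -0.69. Its name among genes higher in neuron RNA of labelled cKO is thus a relative statement, since its level was not higher there in either material.

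**Figure D2:**
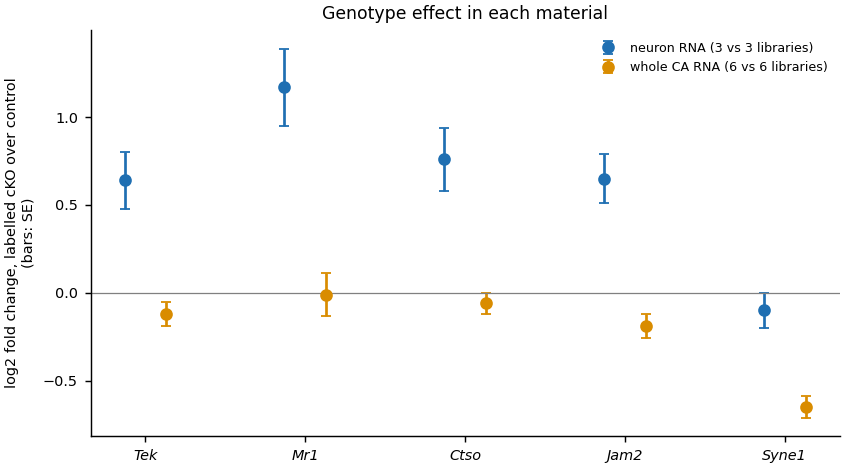
Log2 fold change of the libraries labelled cKO over control (vertical axis, bars SE) for each gene, separately by material. Tek, Mr1, Ctso and Jam2 lie between 0.64 and 1.17 in neuron RNA and close to 0 in whole CA RNA, and Syne1 is near 0 in neuron RNA and at -0.65 in whole CA RNA.

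The difference of effects on the log2 scale was 0.76 for Tek (SE 0.15), 1.18 for Mr1 (SE 0.24), 0.83 for Ctso (SE 0.16), 0.85 for Jam2 (SE 0.14) and 0.56 for Syne1 (SE 0.10). These values chose the genes. Tek lay just inside the threshold, with an edgeR adjusted p of 0.04. Efcab6 lay just outside, with a difference of 0.70 (SE 0.16, edgeR adjusted p 0.0858) from -0.32 in neuron RNA and -1.01 in the whole tissue, the same form as Syne1. Ide followed at 0.53 (SE 0.13), from 0.45 and -0.08, and the RNA gene 4930488L21Rik at 1.47 (SE 0.36), from 1.30 and -0.17. Membership depended on single libraries. When any 1 of the 18 RNA libraries was left out, Jam2 stayed under the threshold in 18 of 18 fits, Syne1 in 14, Ctso in 9, Tek in 6 and Mr1 in 5, and every fit kept each gene's sign. These counts describe the selection and support nothing beyond it.

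Markers of vessel cells were examined because Tek is an endothelial gene and Jam2 a junction gene, and none was called higher in neuron RNA. Among 8 endothelial markers tested there, 0 rose and 1 fell (edgeR, beside 2.75% of all genes called; 2 had an unadjusted p under 0.05, beside 17.2% of all genes, and DESeq2 called 1). The one was Kdr, a receptor for vascular endothelial growth factor, with a log2 fold change of -0.51 (edgeR adjusted p = 0.0411), a call lost in each of the 6 fits without 1 library, and in whole CA RNA it fell by 0.40 (edgeR adjusted p = 0.00415; -0.49 and -0.30 within lanes 1 and 2, edgeR adjusted p = 0.0423 and 0.343). Cdh5, the endothelial cadherin, had a mean of 0.0616 CPM in neuron RNA controls and 0.0521 in libraries labelled cKO, and Pecam1 0.379 and 0.289. The 7 mural markers summed to 11.7 to 14 CPM in controls and 13.8 to 15 in libraries labelled cKO in neuron RNA, and none of the 5 tested was called by edgeR or DESeq2, or had an unadjusted p under 0.05. Vascular fibroblast markers summed to 44.4 to 54.8 against 16 to 18.6 CPM. That drop was almost all Dcn, a proteoglycan gene, with means of 42.3 and 11.3 CPM, while none of the other 5 was called and Col1a2 (0.45), Pdgfra (0.17) and Col3a1 (0.02) had positive log2 fold changes. Dcn fell by 1.92 on the log2 scale in neuron RNA (edgeR adjusted p = 4.83e-05) and by 2.25 in whole CA RNA (edgeR adjusted p = 2.63e-09; -2.29 and -2.20 within lanes).

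Summed markers of glia overlapped between the genotypes in neuron RNA. The microglial sum was 26.4 to 28 CPM in controls and 25.2 to 28.8 in libraries labelled cKO, the astrocyte sum 49.3 to 61.8 and 45.8 to 50.6, and the oligodendrocyte sum 122 to 141 and 135 to 144. The excitatory neuron sum was 2630 to 3020 CPM in libraries labelled cKO, overlapping the controls, and 2 of its 6 markers fell by edgeR, Neurod6 and Nrgn (the latter in 0 of 6 fits without 1 library). Lists of the CA subfields and of the dentate gyrus lay wholly below the controls. No share over other lists was computed for that position, so nothing is read from it. Of all genes in neuron RNA, 2.75% were called by edgeR and 17.2% had an unadjusted p under 0.05. The CA1 sum was 521 to 591 CPM against 615 to 706, with 1 of 4 markers, Wfs1, called lower by edgeR. Wfs1 went from a mean of 140 to 65.4 CPM, while Fibcd1 and Mpped1 each had a log2 fold change of -0.08 and Pou3f1 -0.24. The CA3 sum was 143 to 162 against 177 to 197, with 0 of 4 called by edgeR, 3 at an unadjusted p under 0.05 and 2 called by DESeq2. The dentate granule sum was 115 to 150 CPM, and 3 of its 4 markers, C1ql2, Dsp and Tdo2, fell by edgeR, calls that held in 3, 1 and 2 of 6 fits without 1 library. The remaining marker, Prox1, had the highest level of the list and did not fall, with means of 74.9 and 74.5 CPM (log2 fold change -0.02). In whole CA RNA edgeR called 3 of 4 CA3 markers lower (Grik4, Cpne4 and Iyd), beside 4.17% of all genes called. It also called lower 1 of 6 excitatory neuron markers (Neurod6, -1.78), 1 of 4 CA1 (Wfs1, -0.43) and 1 of 4 dentate granule markers (Dsp, -0.96). Of these 3 lists, 3, 2 and 0 markers had positive log2 fold changes. Among glia it called lower 1 of 6 astrocyte markers (Aqp4) and 1 of 7 microglial markers (Cx3cr1, in 1 of 12 fits without 1 library). Of the 7 microglial markers, 0 had a positive log2 fold change (median -0.22) and DESeq2 called 3. An unadjusted p under 0.05 was reached by 5 of the 7, beside 15.7% of all genes. The part of these sums in the values of the 5 genes was not tested.

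No partner from the pathway lists was called higher in neuron RNA, where the median log2 fold change over all genes tested was 0.0192. In the angiopoietin-Tie list of Tek, 8 of 10 genes were tested and 0 were called in either material by edgeR or DESeq2. Of those 8, 0 had an unadjusted p under 0.05 in neuron RNA and 2 did in whole CA RNA, beside 17.2% and 15.7% of all genes tested, and the list medians were -0.08 and -0.05. Ptprb, the phosphatase that acts on TIE2, had a log2 fold change of 0.36 in neuron RNA (edgeR adjusted p = 0.327).

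The list of Jam2, with other JAM genes and junction partners, had 14 of 16 genes tested and 0 called in either material by edgeR or DESeq2. Of all genes, edgeR called 2.75% in neuron RNA and 4.17% in the whole tissue, so nothing is read from 0 calls. In the list, 3 had an unadjusted p under 0.05 in neuron RNA and 2 in the whole tissue, beside 17.2% and 15.7% of all genes. The list medians were 0.10 and -0.00. The paralogs Jam3 and F11r had log2 fold changes of 0.12 and 0.15 in neuron RNA, and the related endothelial adhesion gene Esam 0.33 (edgeR adjusted p = 0.169).

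For Mr1, the list of MHC class I-like genes and of the MR1 route had 15 of 15 genes tested. In neuron RNA 3 had an unadjusted p under 0.05, beside 17.2% of all genes, DESeq2 called 1, and the median was -0.06 (-0.04 in whole CA RNA). By edgeR 0 rose and 1 fell in neuron RNA, beside 2.75% of all genes called. The one was H2-D1, a classical MHC class I heavy chain, from 15 ± 0.858 to 9.99 ± 1.06 CPM (SD, n = 3 each; log2 fold change -0.59, SE 0.11, edgeR adjusted p = 0.0195), opposite in sign to Mr1, and the call held in 1 of 6 fits without 1 library. Reads of H2-D1 may be shared with its near-identical class I relatives, so its value is uncertain. B2m, the light chain shared by both, had -0.34 (edgeR adjusted p = 0.31). In the whole tissue 0 of 15 were called by edgeR or DESeq2, beside 4.17% of all genes called by edgeR. There, 1 had an unadjusted p under 0.05, beside 15.7% of all genes.

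Of the cysteine cathepsins and cystatins, their inhibitors, 12 of 15 listed genes were tested beside Ctso. In neuron RNA 0 were called by edgeR or DESeq2, beside 2.75% of all genes called by edgeR. There, 1 had an unadjusted p under 0.05, beside 17.2% of all genes (list median -0.04). In whole CA RNA 1 rose by edgeR, beside 4.17% of all genes called (median -0.02). It was Ctsz, the carboxypeptidase cathepsin Z, from a mean of 27.3 to 34.0 CPM (log2 fold change 0.30, SE 0.07, edgeR adjusted p = 0.0257), and the call held in 7 of 12 fits without 1 library and in neither lane alone (0.26 and 0.34).

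Nesprin partners of Syne1 showed no call. Of the 16 genes listed for the linker of nucleoskeleton and cytoskeleton and the lamina, 14 were tested in neuron RNA and 13 in the whole tissue. By edgeR or DESeq2 0 were called, beside 2.75% and 4.17% of all genes called by edgeR, so nothing is read from it. At an unadjusted p under 0.05 stood 1 and 2, beside 17.2% and 15.7% of all genes. The list medians were -0.01 and 0.04. Its paralog Syne2 had a log2 fold change of -0.08 in neuron RNA, its SUN-domain partners Sun1 and Sun2 had -0.01 and 0.27, and the lamin gene Lmna had -0.12.

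The level of a gene in neuron RNA against whole CA RNA, averaged over the genotypes, did not enter the selection and was tested with edgeR over all 18 RNA libraries. Jam2 was lower in neuron RNA, at -3.58 on the log2 scale (SE 0.08, edgeR adjusted p = 2.03e-21), Mr1 had -3.48 (SE 0.12, edgeR adjusted p = 5.26e-18) and Tek -3.12 (SE 0.08, edgeR adjusted p = 3.18e-20). Ctso had -1.37 (SE 0.09, edgeR adjusted p = 3.47e-13). Syne1 was higher in neuron RNA by 0.84 (SE 0.05, edgeR adjusted p = 9.94e-14). Such calls are common, since 88.2% of genes passed, 46.0% higher and 42.2% lower, and the place of each gene among all genes is therefore given too. A share of 4.8% of tested genes had a lower value than Jam2, 4.9% than Mr1, 5.6% than Tek and 15.2% than Ctso, while 70.6% had a lower value than Syne1. Each call held in all 26 alternatives run. Neuron and whole CA libraries also differ in preparation, run and depth, which cannot be told apart from the cells they hold, and scaling by library size alone moved the median over all genes from 0.0655 to 0.2408.

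Read as a share of the whole CA level, neuron RNA of controls held 9.94% of Tek, 6.65% of Mr1, 7.03% of Jam2, 32.8% of Ctso and 167% of Syne1. In libraries labelled cKO these shares were 16.8%, 15.1%, 12.6%, 58.0% and 245%. The rise of each share from control to cKO is the contrast that chose the genes, so nothing is read from it. Tek, Mr1 and Jam2 were thus genes with most of their CPM in whole tissue and a small level in neuron RNA. Their log2 values lay above the endothelial median of -6.38, but the endothelial markers Kdr (-2.20), Esam (-1.86) and Egfl7 (-0.83) were less depleted still.

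**Figure D3:**
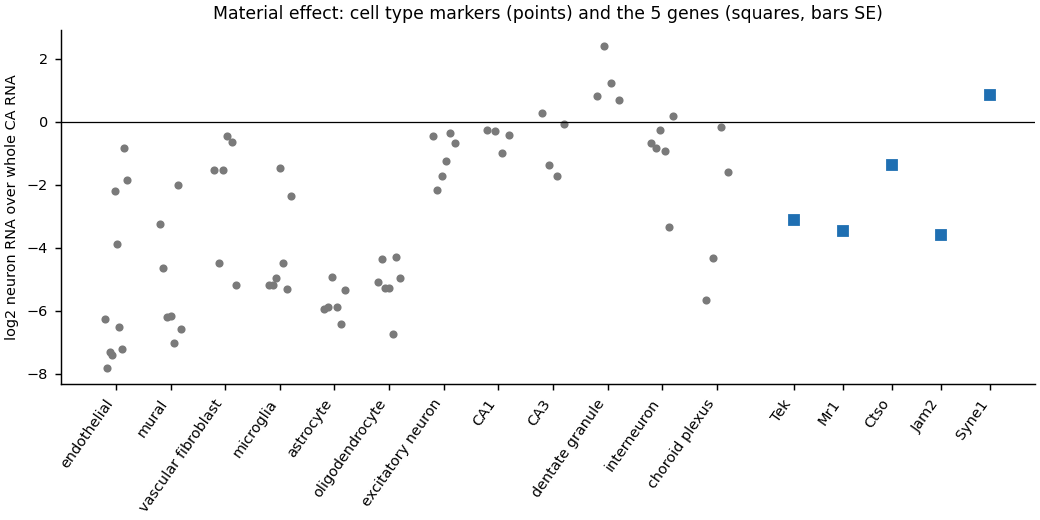
Log2 level in neuron RNA over whole CA RNA (vertical axis) for the markers of each cell type (points) and for the 5 genes (squares, bars SE). Tek, Mr1 and Jam2 lie between -3.12 and -3.58, above the endothelial median of -6.38 and below the excitatory neuron median of -0.96, Ctso is at -1.37, and Syne1 is at 0.84.

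Histone marks were measured in other libraries, by another assay on sorted neuronal nuclei, and their values did not enter the rule that chose the genes. Whether animals were shared with the RNA libraries is not given. The measure was the summed length of the peaks that the authors called in each library, over the start site (within 1 kb) or over the gene interval, compared on the log2 scale with limma after adding 100 bp. The gene interval, and the single regions merged over libraries that are used for Syne1, Jam2 and Tek, were added as measures after the data were seen. One input library per genotype served all peak calls, so input and genotype cannot be told apart. At the start sites of the 3 genes with an H3K4me3 peak there, 0 of 3 were called by limma and 1 had an unadjusted p under 0.05, beside 24.6% called and 36.5% at an unadjusted p under 0.05 among the start sites of all genes. Of all start sites, 23.7% were called shorter and 0.824% longer in libraries labelled cKO. The median log2 fold change over all start sites was -0.0922.

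At Mr1, whose CpG-free upstream window is printed with the sequences, the H3K4me3 length was 780, 609, 587 and 668 bp in controls and 707, 862, 818 and 830 bp in libraries labelled cKO. The groups overlapped through 1 library on each side. The log2 fold change of 0.25 (SE 0.09, limma adjusted p = 0.0805) was above that of 95.7% of start sites, and it passed the threshold in 1 of 8 fits without 1 library. Ctso had 1023, 986, 954 and 1173 bp in controls and 986, 1070, 1098 and 1062 bp in libraries labelled cKO (0.03, limma adjusted p = 0.798). Syne1, with the CpG-richest of the printed windows, had 1751, 1898, 1698 and 1726 against 1810, 2089, 1815 and 1692 bp (0.06, limma adjusted p = 0.573), a value that changed sign to -0.17 when the window was widened to 2 kb. The genotypes overlapped at all 3 starts, where 1.06% of all starts had every library labelled cKO above the controls. Tek had no H3K4me3 peak in the nuclei of either genotype. In the authors' deposited fold enrichment over input, the H3K4me3 peak at Mr1 stood at 9.0 to 17.25 in controls and 16.39 to 21.99 in libraries labelled cKO, at Ctso at 58.34 to 64.36 and 51.37 to 71.27, and at Syne1 at 49.39 to 56.28 and 45.07 to 59.0.

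Over the Jam2 interval, H3K4me3 peaks covered 2911, 2601, 2853 and 2955 bp in controls and 2883, 3289, 3007 and 3363 bp in libraries labelled cKO (log2 fold change 0.14, limma adjusted p = 0.19, with overlap). They fell in a region at the gene's 5′ end, chr16:84773339-84775844, and one inside it, chr16:84813272-84814295. H3K4me1 over the same interval was 3522 to 5396 bp against 4762 to 7209 bp (0.48, limma adjusted p = 0.195). H3K27ac there had a log2 fold change of 0.42 (limma adjusted p = 0.446), which was 0.16 without control replicate 3 and 0.64 without control replicate 4, and H3K9ac 0.34 (limma adjusted p = 0.392). No Jam2 difference passed the threshold.

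For the other marks at start sites, no gene of the 5 was called by limma. At an unadjusted p under 0.05 stood 2 of 4 for H3K4me1, 0 of 2 for H3K27ac and 1 of 3 for H3K9ac, beside 19.0%, 11% and 14.9% of all start sites. The shares of all start sites called by limma were 5.34%, 0.567% and 1.21%. H3K4me1 at Mr1 was 736 to 1651 bp in controls and 1698 to 2578 bp in libraries labelled cKO, which did not overlap, as for 4.57% of start sites (log2 fold change 0.75, limma adjusted p = 0.167). H3K9ac there was 339 to 725 against 586 to 915 bp (0.61, limma adjusted p = 0.308). The log2 fold change at Mr1 was positive for H3K4me3, H3K4me1 and H3K9ac alike, and none of the 3 passed the threshold.

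At the Syne1 start the log2 fold change was -0.42 for H3K4me1 (limma adjusted p = 0.195), 0.04 for H3K27ac (limma adjusted p = 0.88) and 0.02 for H3K9ac (limma adjusted p = 0.95). At Ctso H3K4me1 had -1.02 (limma adjusted p = 0.6), which rested on cKO replicate 4, with no peak there, and was -0.03 without it. H3K27ac at Ctso had 0.20 (0.08 to 0.30 without 1 library, limma adjusted p = 0.693) and H3K9ac 0.11 (-0.01 to 0.18 without 1 library, limma adjusted p = 0.793). Tek had little of any mark in the neuronal nuclei. H3K4me1 at its start was 0 to 380 bp in controls and 0 to 324 bp in libraries labelled cKO (limma adjusted p = 0.77). Inside the gene a region at chr4:94786816-94788307 had no H3K4me1 peak in any control and one in 3 of 4 libraries labelled cKO. It passed the filter of a peak in at least 3 libraries only through the libraries labelled cKO, so it is a description. Over the interval, which includes that region, the log2 fold change was 1.79 (limma adjusted p = 0.136), against -0.43 at the start.

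**Figure D4:**
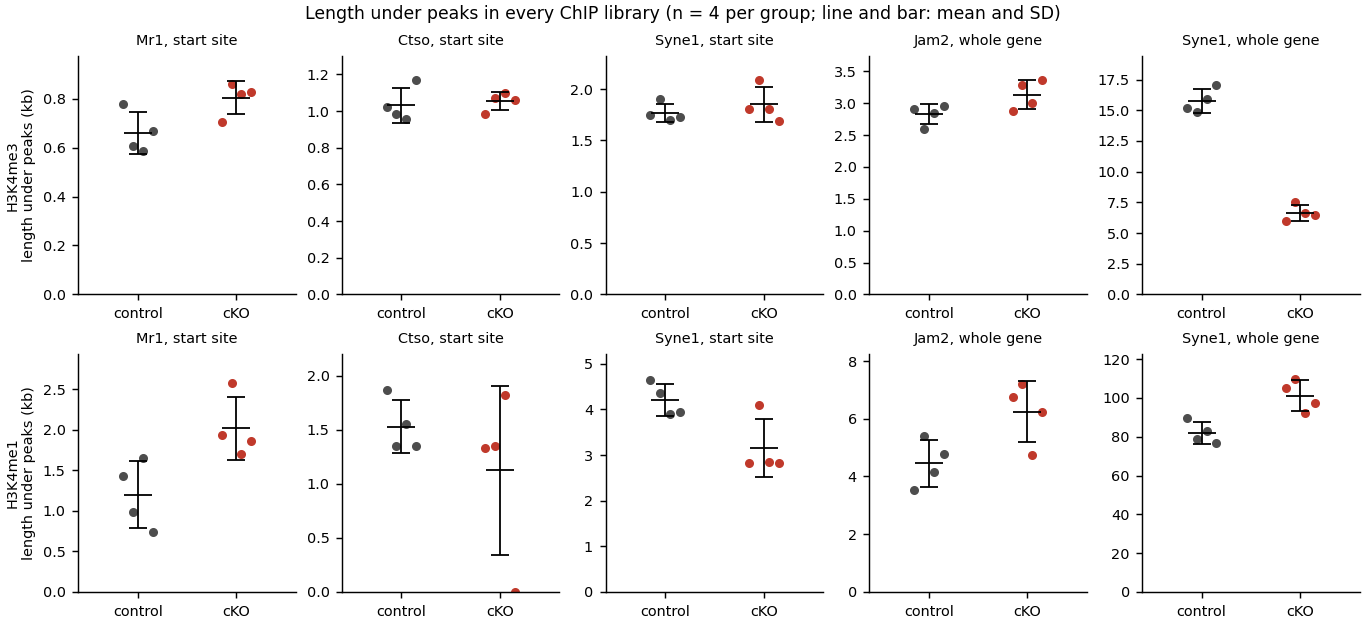
Length under peaks in kb (vertical axis) in every H3K4me3 and H3K4me1 library, at the start site or over the whole gene as each panel's title says. Points are libraries, lines and bars the mean and SD (n = 4 per group). The H3K4me3 length over the Syne1 gene separates the genotypes, and the start-site panels of H3K4me3 overlap.

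Syne1 carried the one H3K4me3 difference of the 5 genes, away from its 5′ start. Over the gene interval, H3K4me3 peaks covered 15232, 14928, 15900 and 17087 bp in controls and 5999, 7519, 6604 and 6435 bp in libraries labelled cKO. The groups were far apart. The log2 fold change was -1.24 (SE 0.08, limma adjusted p = 8.12e-05), lower than in all but 1.5% of genes, and the call held in all 10 alternatives. Of all gene intervals, 19.3% were called shorter, and 24.4% had every library labelled cKO below the controls.

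Of 9 H3K4me3 regions in Syne1, 4 were called, each shorter in libraries labelled cKO, beside 9.36% of regions overall. The one with the most length, chr10:5363099-5369055, begins 181.6 kb downstream of the 5′ end and lies 119 kb from the nearest listed start. It measured 5775, 5736, 5893 and 5859 bp in controls and 1843, 1736, 2250 and 1919 bp in libraries labelled cKO (log2 fold change -1.54, limma adjusted p = 4.24e-05). Next to it, chr10:5359966-5362635 had 2076, 2025, 1908 and 2429 bp in controls and no peak in any of the 4 libraries labelled cKO (limma adjusted p = 2.17e-07). At chr10:5192794-5195426 the lengths were 2253, 2285, 2500 and 2483 against 1081, 956, 930 and 1121 bp (-1.15, limma adjusted p = 0.000133). At chr10:5287727-5289832 they were 1814, 1471, 1776 and 1761 against 292, 729, 300 and 648 bp (-1.69, limma adjusted p = 0.00788). In each of the 4 the groups were apart, as in 15.2% of all regions. The region at the 5′ end, chr10:5548606-5551232, which holds the printed window, had 2044 to 2306 against 1692 to 2089 bp (-0.17, limma adjusted p = 0.275).

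H3K27ac along Syne1 had calls in the opposite direction, at other positions than the shorter H3K4me3 regions, and H3K9ac was mixed. Of 51 H3K27ac regions, 8 were called longer in libraries labelled cKO and 0 shorter (21 had an unadjusted p under 0.05, beside 14.2% of all regions), beside 1.23% of regions called longer overall. In 18 of the 51 all libraries labelled cKO were above all controls, beside 8.03% of all regions. At chr10:5346669-5348313 no control had a peak and the libraries labelled cKO had 810 to 1288 bp (limma adjusted p = 0.00154). Controls also lacked a peak at the called regions chr10:5181110-5181517, chr10:5344643-5345324 and chr10:5437978-5438646. At the called regions chr10:5348874-5350606 and chr10:5384001-5385012 only control replicate 1 had a control peak, of 223 and 176 bp. All of these regions passed the filter of a peak in at least 3 libraries only through the libraries labelled cKO, so their calls are a description. Of the 51 regions, 8 had no peak in any control, so the counts of called and of non-overlapping regions are a description too. At chr10:5416100-5418704 the length went from 797 to 1100 bp in controls to 2100 to 2522 bp (log2 fold change 1.23, limma adjusted p = 0.0112). The number called was 3 without control replicate 3 and at most 9 without any other library. Over the whole interval H3K27ac covered 26737 to 43570 bp in the 3 controls and 57258 to 70242 bp in the 4 libraries labelled cKO, which did not overlap, as for 4.92% of intervals, beside 0.621% called (0.86, limma adjusted p = 0.144).

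For H3K9ac, 2 of 14 Syne1 regions were called longer, beside 1.79% of regions overall. They were chr10:5318853-5319643 and chr10:5411499-5411776, with no peak in any control and 262 to 670 and 240 to 278 bp in libraries labelled cKO (limma adjusted p = 0.00597 and 0.0016). Both passed the filter of a peak in at least 3 libraries only through the libraries labelled cKO, so these calls are a description. Without any 1 library labelled cKO neither could be tested, as too few libraries then had a peak, and 0 were called among peaks with a −log10 q of at least 5 or with 1000 bp added. Within the shorter H3K4me3 regions no H3K9ac region was called. At chr10:5364382-5369399, which overlaps the longest of the 4 H3K4me3 regions, it measured 3465 to 4294 bp in controls and 2561 to 3081 bp in libraries labelled cKO, apart as for 5.66% of all regions lying below the controls (-0.44, limma adjusted p = 0.303). At chr10:5361144-5362392 and chr10:5288374-5290017 the log2 fold change was -0.37 (limma adjusted p = 0.751) and -0.42 (limma adjusted p = 0.66). Over the whole interval H3K9ac had 0.19 (limma adjusted p = 0.581). H3K4me1 had 47 regions and 0 calls by limma, beside 1.49% of all regions and 3.66% of intervals called, with 9 at an unadjusted p under 0.05, beside 14.6% of all regions, and 38 of 47 longer, beside 65.0% of all regions. Over the interval it covered 76636 to 89549 bp in controls and 92202 to 109810 bp in libraries labelled cKO, apart as for 5.65% of intervals (0.30, limma adjusted p = 0.157). H3K4me3 was thus called shorter in 4 Syne1 regions. The calls of H3K27ac and H3K9ac were all longer, but none overlapped those 4 regions, and most of them were tested only through the libraries labelled cKO. The Syne1 RNA level in neurons overlapped between the genotypes.

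**Figure D5:**
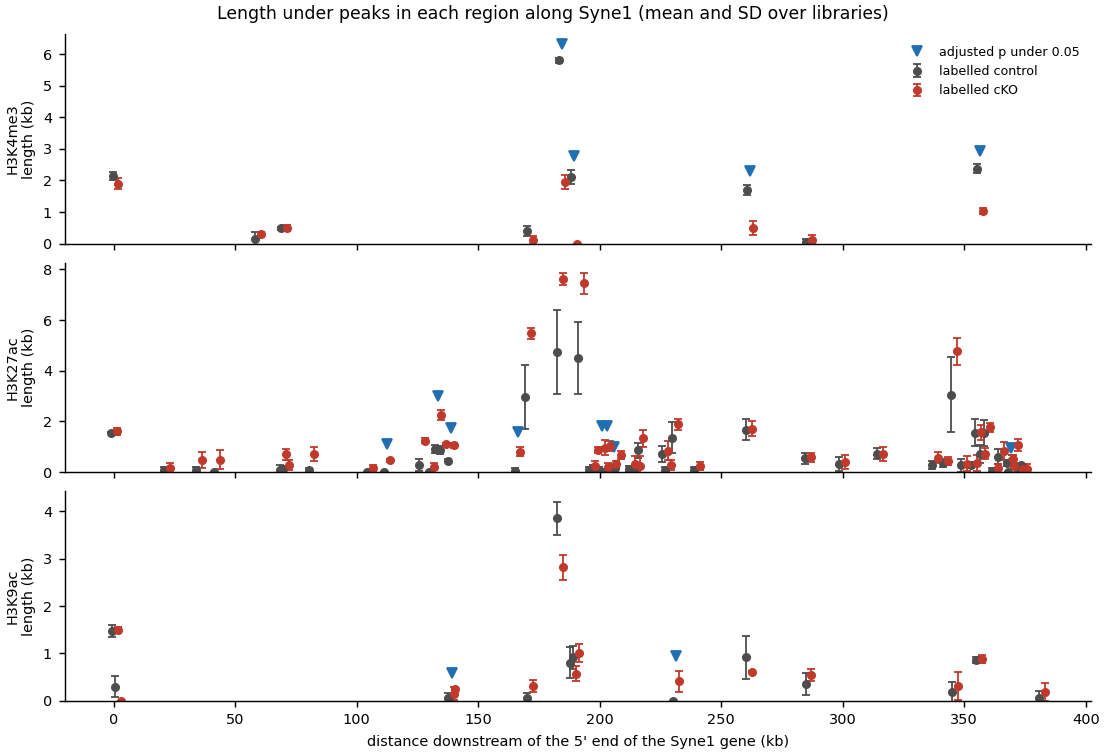
Length under peaks in kb in each region along Syne1 (vertical axis, mean and SD over libraries) against the distance downstream of the gene's 5′ end in kb, for H3K4me3, H3K27ac and H3K9ac. Triangles mark limma adjusted p under 0.05. The 4 marked H3K4me3 regions, all shorter in libraries labelled cKO, lie inside the gene. The marked H3K27ac and H3K9ac regions are longer and lie at other positions.

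The genes most like each of the 5 over the 18 RNA libraries, after removing each material's mean, were taken from 12544 genes by Pearson correlation of log2 CPM. They share libraries and depth and are given as a description. Tek was closest to Aamdc (r = 0.775) and Sft2d2 (0.77), Mr1 to Inca1 (0.819) and Pik3r3 (0.796), Ctso to Aldh6a1 (0.884) and Myo6 (0.869), and Jam2 to Slc1a2 (0.827) and Ide (0.813). Syne1 was closest to Efcab6 (0.932), the gene just outside the threshold, and Pde11a (0.915). Tek, Mr1, Ctso and Jam2 correlated with each other at 0.58 to 0.70 and with Syne1 at -0.04 to 0.18. The choice of the genes enters these values.

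Genes next to the 5 were looked up too, and with so few of them nothing is read from the counts called. Within 100 kb lie 16 protein-coding genes. In neuron RNA 14 were tested and 1 was called, beside 2.75% of all genes. It was Tdo2 beside Ctso, the tryptophan dioxygenase that also marks dentate granule cells, with a log2 fold change of -0.70 (edgeR adjusted p = 0.0201), a call that held in 2 of 6 fits without 1 library. In the whole tissue 13 were tested and 1 was called, beside 4.17% of all genes. It was Stx6 near Mr1, a trafficking syntaxin, at 0.28 (edgeR adjusted p = 0.0147), with 0.27 and 0.29 within lanes, where it was not called. Mr1, Jam2 and Syne1 overlap RNA genes (Gm30922 for Mr1, Gm46557 for Jam2, and 4 for Syne1), and as no source used here says that counting used the strand, reads of such partners could not be told apart.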

How the data were processed

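The deposited RNA tables hold raw read counts per Ensembl gene for each library. The aligner and the counting program are not given in the sources used here, and per the submitters' processing notes the build was mm10 (GRCm38). The deposited peak tables give, per library, each peak's position and length in bp, its fold enrichment over input (a ratio) and the −log10 of its q-value, from MACS 2.1.0.20140616 (2.1.1.20160309 for H3K4me3) at a q cutoff of 0.1, per the file headers. ChIP depth was 24.4 to 27.8 M tags for H3K4me3, 29.6 to 35.5 for H3K4me1, 37.0 to 41.6 for H3K27ac and 35.7 to 39.0 for H3K9ac, per the file headers, so shorter peaks may be missed in shallower libraries.

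From the counts, edgeR 4.0.16 (R 4.3.3) was run with TMM scaling, its expression filter and quasi-likelihood tests, in neuron RNA, in whole CA RNA and in all 18 RNA libraries for the difference of effects and for the material. CPM was computed here. Benjamini-Hochberg adjustment was over all genes tested, at 0.05. Peak lengths were tested with limma 3.58.1 on log2(length + 100 bp), over features with a peak in at least 3 libraries. Start-site windows reached 1 kb to either side of RefSeq starts. Alternatives were DESeq2 1.42.0, other scalings and filters, single lanes, a −log10 q of at least 5, 1000 bp added, a 2 kb window, a replicate block and each library left out. The scripts were tested on simulated data. The members, gene lists and markers were chosen with earlier results of these data known. Named genes are the 5, their 2 most correlated genes each, genes just outside the threshold, called list members and neighbours, Setd1b, and partners picked as examples from the lists. Markers named by symbol were picked after their values were seen. Jam2 has no listed promoter in the table used here.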

Additional observations from a re-analysis of the deposited data

Results flagged for a closer look

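Of 50 groups of 4 to 10 libraries examined, 5 held 1 library far from the rest, where chance gives about 1 in 20. Mr1 stood at 8.57 CPM in whole CA control replicate 4, the highest of its group. H3K4me1 at the Syne1 start measured 4104 bp in cKO replicate 2, and H3K4me1 over the Ctso gene measured 6748 bp in the same library. H3K27ac at the Mr1 start was present in cKO replicate 1 alone, at 192 bp, and over the Tek gene in cKO replicate 2 alone, at 330 bp. Leaving out any of these libraries did not bring a call to, or take one from, the Mr1 whole CA level or the Syne1 H3K4me1 start.

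The genotype effect differed between neuron RNA and whole CA RNA by 0.76 for Tek, 1.18 for Mr1, 0.83 for Ctso, 0.85 for Jam2 and 0.56 for Syne1 on the log2 scale, which is the contrast that chose them.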

How the results depend on the processing

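Counts of called genes moved with the setting. In neuron RNA 539 genes were called, 833 with DESeq2, 327 with a replicate block and 207 to 482 without 1 library. In whole CA RNA 640 were called, 886 with DESeq2, 839 with a replicate block, 207 in lane 1 alone, 224 in lane 2 alone and 467 to 669 without 1 library. For the difference of effects 28 were called, 67 with DESeq2, 69 with no filter, 16 with lane 2 alone and 18 to 32 without 1 library. For the material, 15347 to 15549 were called without 1 library. Start sites called numbered 3488 for H3K4me3 (2724 to 3423 without 1 library), 905 for H3K4me1 (247 at a −log10 q of at least 5, 364 with a replicate block, 2048 over merged regions, 703 to 848 without 1 library), 79 for H3K27ac (0 with a replicate block, 145 over gene intervals, 2945 over merged regions, 13 to 84 without 1 library) and 174 for H3K9ac (269 with 1000 bp added, 2 with a replicate block, 2419 over merged regions, 60 to 229 without 1 library). Along Syne1, 8 H3K27ac regions called longer became 0 with a replicate block and 3 to 9 without 1 library. The 2 H3K9ac regions became 0 at a −log10 q of at least 5, with 1000 bp added and with a replicate block, and 0 to 3 without 1 library. Of the 4 shorter H3K4me3 regions, 3 were called with a replicate block and 4 in every fit without 1 library.

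Values near 0 changed sign while staying uncalled. Ctso H3K4me3 at the start was -0.01 without control replicate 3 (range without 1 library -0.01 to 0.08), and Ctso H3K9ac was -0.02 at a −log10 q of at least 5 and -0.01 without cKO replicate 4 (range -0.01 to 0.18). Syne1 within 2 kb of the start was -0.17 for H3K4me3, -0.02 for H3K27ac and -0.23 for H3K9ac, and its H3K9ac value within 1 kb was -0.01 with a replicate block, -0.02 without control replicate 1, -0.01 without control replicate 3 and -0.01 without cKO replicate 2 (range -0.02 to 0.06). The cause was not tested. Gene intervals and merged regions were added after the data were seen.

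Replicate numbers gave no consistent pairing of the libraries, though whole CA cKO replicates 4 and 5 were closest to the control of the same number. The deviations of same-numbered libraries correlated at -0.125, 0.558 and -0.512 in neuron RNA, at -0.199 to 0.282 in whole CA RNA and at -0.091 to 0.059 over ChIP pairs, so the block is given as a setting only.

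Depth limits Mr1 most, with 26 to 29 reads in neuron RNA controls. Peak length follows the authors' threshold and shows no height. H3K27ac has 3 control libraries and H3K9ac 3 labelled cKO, so leaving 1 out weakens those tests by construction.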
